A study of Saccharomyces cerevisiae with 12 samples.

Results

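The genes described here encode the respiratory chain and the ATP synthase of Saccharomyces cerevisiae, with the regulator HAP4. They were listed by name as 39 genes: 3 NADH dehydrogenases, 4 subunits of complex II, 9 of complex III, 2 forms of cytochrome c, 8 genes of complex IV, 12 subunits of the ATP synthase, and HAP4. A region was taken as upstream of a gene when that gene was the left neighbour with a systematic name ending in C or the right neighbour with one ending in W. That rule gave 36 regions for 36 genes, out of 4532 intergenic regions. QCR10 and ATP18 have a suffix after the strand letter and fell outside it, so these 2 genes are given apart, and ATP1 had no upstream region in the tables used here. Judged only by the 2 genes that name each region, 21 of the 36 lay upstream of 1 gene. The other 15 lay between 2 divergent genes, where insertions cannot be assigned to either gene. Region lengths ran from 132 to 4938 bp with a median of 529.5 bp, against a median of 440 bp over all regions, and 8 of the 36 held a further annotated gene between the genes that name them. The split leaves these further genes out, as in SNU13-RIP1, SAM4-ATP15 and ATP14-YHC1, which it counts as upstream of 1 gene.

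Transcription factor binding was recorded with calling cards. A factor fused to Sir4, a silencing protein that recruits the retrotransposon Ty5, was carried on a plasmid in cells that also held a HIS3-marked Ty5 under the GAL1/10 promoter, and each new Ty5 copy near a bound site is an insertion that can be mapped. One clone per strain was kept on galactose for 3 days, on YPD for 2 days and on medium without histidine but with 5-FOA for 3 days. The 12 libraries were TEF1p-Tye7 gcr2D (Tye7 under the TEF1 promoter, sir4D gcr2D), TEF1p-Tye7 (sir4D), Tye7 (sir4D tye7D), Cbf1 bHLH-ZIP with Tye7 basic region (sir4D cbf1D), Cbf1 bHLH, Cbf1 bHLH-ZIP and full-length Cbf1 (each sir4D cbf1D), NPAS2 bHLH with the Cbf1 ZIP and NPAS2 bHLH (both sir4D cbf1D), and Gcr1, Gcr2 and Cst6 (each sir4D). All strains were BY4741 except that of the Tye7 basic region, which was BY4742, and SIR4 was absent from every strain. The bHLH is the basic helix-loop-helix DNA-binding domain, the ZIP is the leucine zipper, and NPAS2 is a mammalian clock factor.

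Respiration passes electrons from NADH and succinate through ubiquinone, complex III, cytochrome c and complex IV to oxygen, and the proton gradient so formed drives the ATP synthase. Budding yeast has no proton-pumping complex I and uses single-protein NADH dehydrogenases in its place. Many of the nuclear genes of this system are activated by the Hap2/3/4/5 complex, of which Hap4 is the subunit whose level limits activation in cells that respire. Cbf1 and Tye7 are bHLH factors that read E-boxes, Gcr1 and Gcr2 activate glycolytic genes, and Cst6 is a bZIP factor of the ATF/CREB family.

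Each group held 1 library, so every test compares 1 library with another or with a background set and not 1 condition with another, and there was no replicate check. Libraries held between 3341 insertions for NPAS2 bHLH and 54385 for Cst6, of which 2415 and 37782 were intergenic. Values below are shares, the percentage of a library's intergenic insertions that fell in a region, and their intervals are exact at 95% and cover counting error only. The deposited background set held 53808 intergenic insertions for Gcr1, Gcr2 and Cst6 and 66271 for the other 9 libraries, so comparisons with the background share their reference. Each region was tested with the two-sided Fisher's exact test, Benjamini-Hochberg adjusted over all 4532 regions, and this p is printed as the adjusted exact p. Calls needed a value under 0.05 and shares that differed at least 2-fold in either direction after 1 insertion was added on both sides, as was also done before taking log2. Folds are printed without that addition. In the background comparisons, scaling on regions outside the 10 fullest raised all log2 ratios by between 0.04 (NPAS2 bHLH) and 1.15 (the NPAS2 form with the Cbf1 ZIP).

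Between 0 and 6 of these regions were called higher than the background set in a library. In the map of log2 ratios, 11 of 36 regions were called higher in some library, 20 were called lower in some library, and 6 of these were in both counts. The share of all regions called in some library was not computed, so these counts have no reference. Shares of all regions are given for each library below. Cbf1 had 6 regions higher and 7 lower, where 3.42% of all regions were called higher and 11.2% lower. Without NDI1 and ATP7, 4 regions were higher in Cbf1. Cbf1 bHLH-ZIP had 4 higher and 2 lower (all regions 1.83% and 0.75%), its form with the Tye7 basic region 3 higher and 0 lower (1.39% and 0.0662%), and Cbf1 bHLH 2 higher and 0 lower (1.39% and 0.0221%). NPAS2 bHLH with the Cbf1 ZIP had 2 higher and 0 lower (1.1% and 0%). Gcr2 had 2 higher and 1 lower (1.21% and 1.39%), and Cst6 had 2 higher and 17 lower (3.2% and 18.4%). The lower counts depend on the processing: with positions merged in the library and not in the background set, 0 lower calls were left in Cbf1 bHLH-ZIP, 1 in Cbf1, 0 in Gcr2 and 0 in Cst6. Scaling outside the 10 fullest regions left 0 in Cbf1 bHLH-ZIP, 3 in Cbf1, 0 in Gcr2 and 9 in Cst6, and at least 5 reads left 0, 4, 1 and 8 in that order of libraries. TEF1p-Tye7 gcr2D had 1 higher and 0 lower (0.927% and 0.0221%). In either direction 0 regions were called by the exact test in TEF1p-Tye7 (0.552% and 0.0221%), Tye7 (0.375% and 0%), NPAS2 bHLH (0.0221% and 0%) and Gcr1 (1.28% and 1.08%). At an unadjusted p under 0.05 TEF1p-Tye7 had 0 regions higher and 2 lower, Tye7 0 and 3, NPAS2 bHLH 2 and 0, and Gcr1 1 and 8. By the Poisson p-value of the authors' deposited table, Gcr1 had 1 region higher and the other 3 libraries had 0. The median log2 ratio of the 36 regions was -0.67 in Cbf1, where that of all regions was -0.71, and -1.81 in Cst6, where that of all regions was -1.19. Outside Cbf1 the median of the 36 lay below that of all regions in each of the other 11 libraries. Examples are -0.44 against 0.24 in Tye7 and 1.39 against 1.97 in NPAS2 bHLH. The 36 regions are longer and hold more background insertions, with a median of 12 against 8, and the part of this in the medians was not tested. The medians also depend on the 1 insertion added, which lifts empty regions above 0 in small libraries when their background count is small. COX12-RIC1, with 0 insertions against 6 in the background, had 1.97 in NPAS2 bHLH, which is the median of all regions there.

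**Figure D1:**
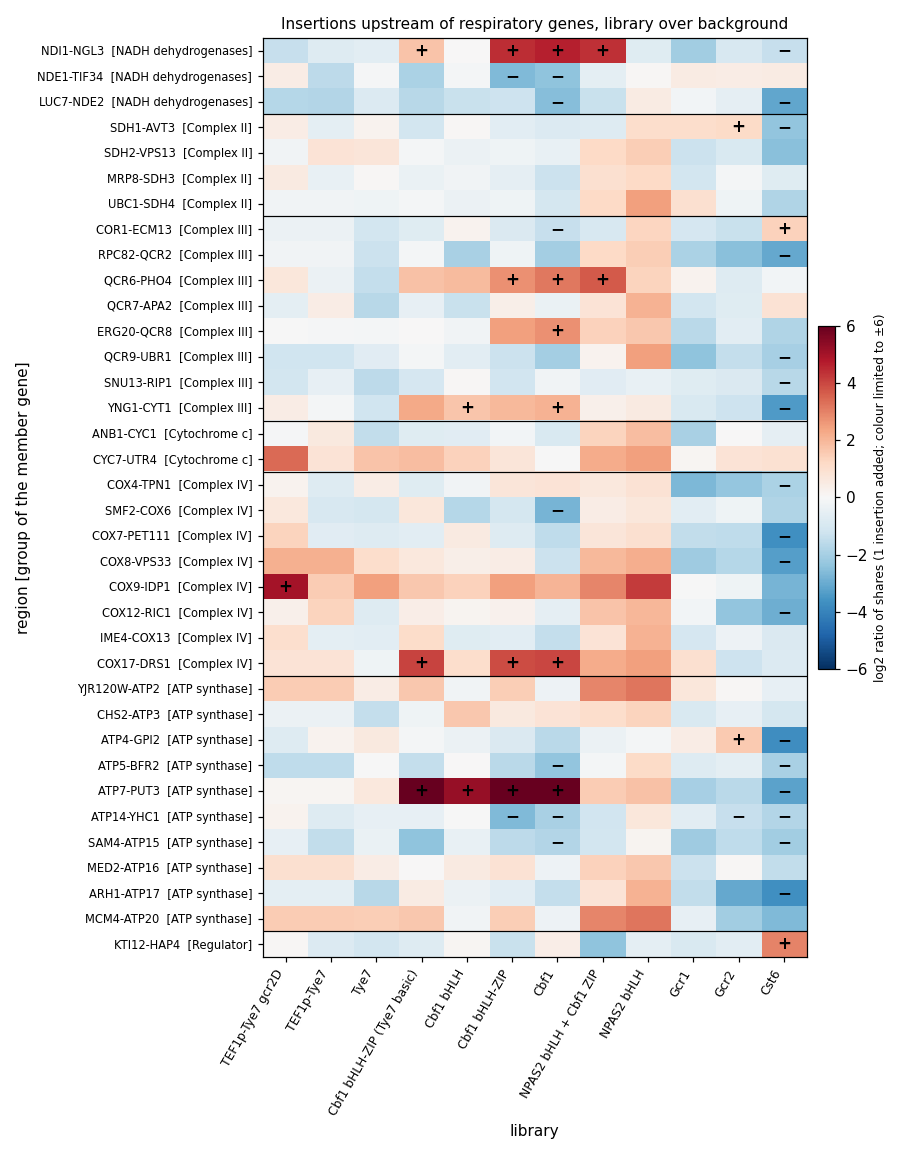
Log2 ratio of the share of insertions in each of 36 regions (rows, grouped by complex) between a library (columns) and its background set, with + for regions called higher and − for regions called lower. ATP7-PUT3 reached 8.57 in Cbf1 bHLH-ZIP with Tye7 basic region and NDI1-NGL3 reached 4.68 in Cbf1. COX9-IDP1, with 10 insertions against 2 in the background, reached 5.00 in TEF1p-Tye7 gcr2D. Because 1 insertion is added, empty regions can stand above 0 in small libraries: YJR120W-ATP2, with 0 insertions, had 3.19 in NPAS2 bHLH.

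Among the NADH dehydrogenases, NDI1, the internal enzyme that feeds matrix NADH into the chain, had more insertions than NDE1 and NDE2 in all forms of Cbf1 with a zipper and in NPAS2 bHLH with the Cbf1 ZIP; NDE1 had more in the other 8 libraries and in both background sets. Its region NDI1-NGL3 (chromosome 13, 29807 to 32334) is divergent, is shared with NGL3 and also spans YML119W. It held 1 insertion in TEF1p-Tye7 gcr2D, 2 in TEF1p-Tye7, 6 in Tye7, 15 in Cbf1 bHLH-ZIP with Tye7 basic region, 17 in Cbf1 bHLH, 116 in Cbf1 bHLH-ZIP and 471 in Cbf1. It held 39 in NPAS2 bHLH with the Cbf1 ZIP, 0 in NPAS2 bHLH, 2 in Gcr1, 9 in Gcr2 and 10 in Cst6, while the background sets held 44 for 9 libraries and 40 for Gcr1, Gcr2 and Cst6. High shares were thus found in the libraries of full-length Cbf1, Cbf1 bHLH-ZIP and NPAS2 bHLH with the Cbf1 ZIP.

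The NDI1 region took 1.74% of Cbf1 insertions (1.58 to 1.90), against 0.0664% of the background set, 26.1-fold higher (19.2 to 36.5; adjusted exact p = 1.74e-194). In Cbf1 bHLH-ZIP the share was 1.44%, which was 21.8-fold higher than the background (15.3 to 31.5; adjusted exact p = 3.85e-73). NPAS2 bHLH with the Cbf1 ZIP gave 1.36%, 20.5-fold higher (13.0 to 32.4; adjusted exact p = 3.68e-29). The Tye7 basic region library gave 0.207%, 3.12-fold higher (1.61 to 5.72; adjusted exact p = 0.0325), a call that was lost when insertions needed 5 reads. Cst6 was lower than its background, with 0.0265% against 0.0743% (a factor of 2.81, 1.38 to 6.30; adjusted exact p = 0.0139), and this call was lost under scaling, at least 5 reads and merging.

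Comparisons between libraries placed the NDI1 region at either end of the changes. Cbf1 bHLH, which lacks the zipper, had 0.0662% against 1.44% in Cbf1 bHLH-ZIP, lower by a factor of 21.8 (13.1 to 38.8; adjusted exact p = 1.63e-51). NPAS2 bHLH with the Cbf1 ZIP had 39 of 2859 insertions and NPAS2 bHLH had 0 of 2415, which allows a share of up to 0.124%, so the region was at least 11-fold higher with the zipper, a bound taken at 3 insertions in the NPAS2 bHLH library (adjusted exact p = 1.98e-08). With insertions of at least 5 reads only, 9 were left with the zipper and this pair was no longer called. The Tye7 basic region library had 0.207% against 1.44% in Cbf1 bHLH-ZIP, lower by a factor of 6.97 (4.05 to 12.8; adjusted exact p = 1.64e-15), a call lost with merged positions. Tye7 had 0.0375% against 1.74% in Cbf1, lower by a factor of 46.3 (21.1 to 127; adjusted exact p = 9.74e-83). Here and in all later comparisons of Tye7 with Cbf1 the host also differs, tye7D against cbf1D. Factor and deletion cannot be told apart in that pair. Cbf1 bHLH-ZIP had 1.44% against 1.74% in Cbf1, a ratio of 0.833 (0.674 to 1.02) that was not called. In the zipper pair of NPAS2, 0.485% of all regions were called higher and NDI1 was the only one of the 36.

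**Figure D2:**
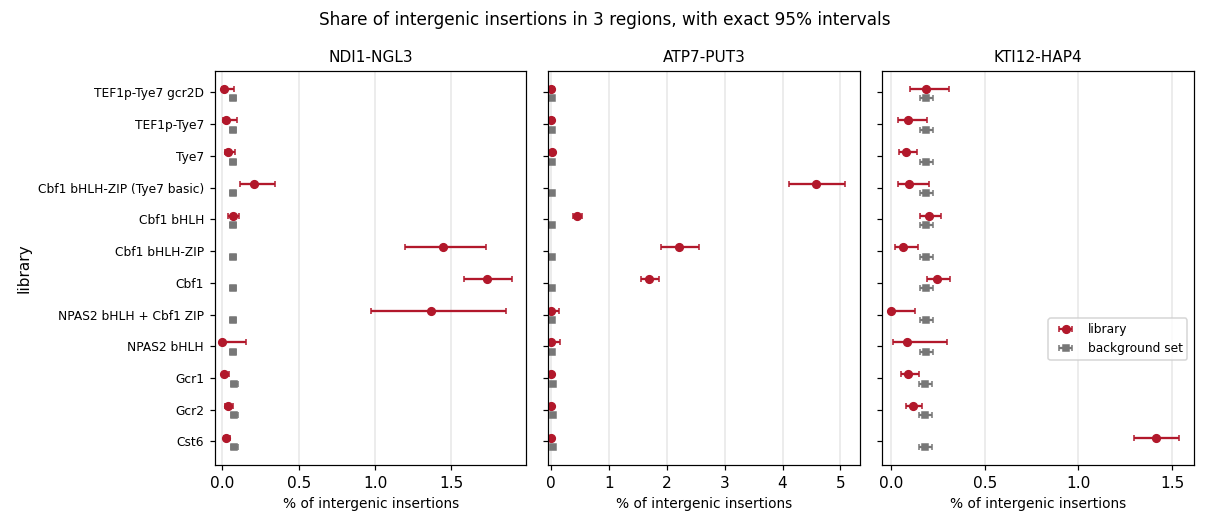
Share of intergenic insertions in NDI1-NGL3, ATP7-PUT3 and KTI12-HAP4 (x axis, percent) for each library (red circles) above its background set (grey squares), with exact 95% intervals of counting error. ATP7-PUT3 reaches 4.58% in Cbf1 bHLH-ZIP with Tye7 basic region, NDI1-NGL3 reaches 1.74% in Cbf1, and KTI12-HAP4 reaches 1.41% in Cst6.

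NDE1 and NDE2, the external NADH dehydrogenases that oxidise cytosolic NADH, were not called higher against the background in any library. NDE1-TIF34 held 7 insertions in Cbf1, 0.0258% against 0.154% of the background, lower by a factor of 5.97 (2.79 to 15.2; adjusted exact p = 3.26e-07). It held 1 in Cbf1 bHLH-ZIP, which was lower as well (a factor of 12.4, 2.17 to 493; adjusted exact p = 0.00988), a call lost under scaling, at least 5 reads and merging. In Tye7 it held 23 insertions, 0.144% against 0.0258% in Cbf1, 5.57-fold higher (2.32 to 15.4; adjusted exact p = 0.000520). This was the only region of the 36 called higher in Tye7 than in Cbf1, where 2.71% of all regions were called so, and the call was lost when nearby positions were merged or when every run of Tye7 had to lie above every run of Cbf1. LUC7-NDE2 was lower in Cbf1 (3 insertions against 57 in the background; adjusted exact p = 0.000126) and in Cst6 (1 against 24; adjusted exact p = 0.000665), and both calls were lost with merged positions.

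Complex II, succinate dehydrogenase, was represented by 4 regions, and 1 was called higher. SDH1-AVT3, upstream of the flavoprotein subunit gene SDH1 and of AVT3 (chromosome 11, 171134 to 171788), held 38 insertions in Gcr2, 0.15% against 0.0669% of the background, 2.24-fold higher (1.38 to 3.63; adjusted exact p = 0.0303). In Gcr1 it held 23 insertions, 2.06 times the background share, and was not called. In Cst6 it held 4 insertions, lower by a factor of 6.32 (2.27 to 24.4; adjusted exact p = 0.000484), a call lost with merged positions. The regions of SDH2, the iron-sulfur subunit, and of SDH3 and SDH4, the membrane anchors, held at most 3 insertions in any library and were never called.

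Complex III, the cytochrome bc1 complex, contributed 8 regions, and 3 of them were called higher in Cbf1. QCR6-PHO4, upstream of the hinge subunit gene QCR6 (chromosome 6, 224757 to 225008), held 39 insertions in Cbf1, 0.144% against 0.0151% of the background, 9.52-fold higher (4.67 to 21.4; adjusted exact p = 2.23e-11). ERG20-QCR8 (chromosome 10, 106066 to 106428) held 24 in Cbf1 and was 7.33-fold higher (3.18 to 18.9; adjusted exact p = 3.49e-06). YNG1-CYT1, upstream of YNG1 and of the cytochrome c1 gene CYT1 (chromosome 15, 446740 to 447441), held 32 in Cbf1 and was 4.34-fold higher (2.36 to 8.21, adjusted exact p = 1.09e-05). Of these 32 insertions, 84.4% lay 513 to 612 bp from the CYT1 edge of this 702 bp region, which is nearer YNG1. In the shorter forms of Cbf1 the fullest 100 bp began 508 to 511 bp from that edge.

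These 3 regions were far emptier in Tye7 than in Cbf1. QCR6-PHO4 held 0 insertions in Tye7, which allows a share of up to 0.0188%, against 39 in Cbf1, at least 7.66-fold lower with 3 insertions taken for Tye7 (adjusted exact p = 1.46e-06). ERG20-QCR8 held 1 against 24, lower by a factor of 14.1 (2.31 to 582; adjusted exact p = 0.00657), a call lost with insertions of at least 5 reads only. YNG1-CYT1 held 1 against 32, lower by a factor of 18.9 (3.15 to 768; adjusted exact p = 0.000248).

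In the shorter forms of Cbf1, some of these regions were called and others were above the background without a call. Cbf1 bHLH-ZIP and its form with the Tye7 basic region held 8028 and 7233 intergenic insertions, while Cbf1 bHLH held 25688 and Cbf1 27141. ERG20-QCR8 held 2 insertions in Cbf1 bHLH and 0 with the Tye7 basic region. QCR6-PHO4 held 8 insertions in Cbf1 bHLH-ZIP, 6.60-fold higher than the background (2.26 to 18.6; adjusted exact p = 0.0145), and 5 in NPAS2 bHLH with the Cbf1 ZIP, 11.6-fold higher (3.11 to 37.2; adjusted exact p = 0.0246). The call in Cbf1 bHLH-ZIP was lost with regions widened on each side. The call in the NPAS2 library was lost with merged positions or at least 5 reads. YNG1-CYT1 held 22 in Cbf1 bHLH, 3.15-fold higher (1.61 to 6.24; adjusted exact p = 0.0238), and lost its call with widened regions or merged positions. In Cbf1 bHLH-ZIP with Tye7 basic region, YNG1-CYT1 held 9 insertions, 4.58 times the background share, and was not called (adjusted exact p = 0.0516). ERG20-QCR8 and YNG1-CYT1 held 5 and 8 insertions in Cbf1 bHLH-ZIP, 5.16 and 3.67 times the background share, and QCR6-PHO4 held 15 in Cbf1 bHLH, 3.87 times, with no call. None of these regions was called between Cbf1 bHLH-ZIP and Cbf1; for QCR6-PHO4 the ratio was 0.693 with an interval of 0.280 to 1.51.

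**Figure D3:**
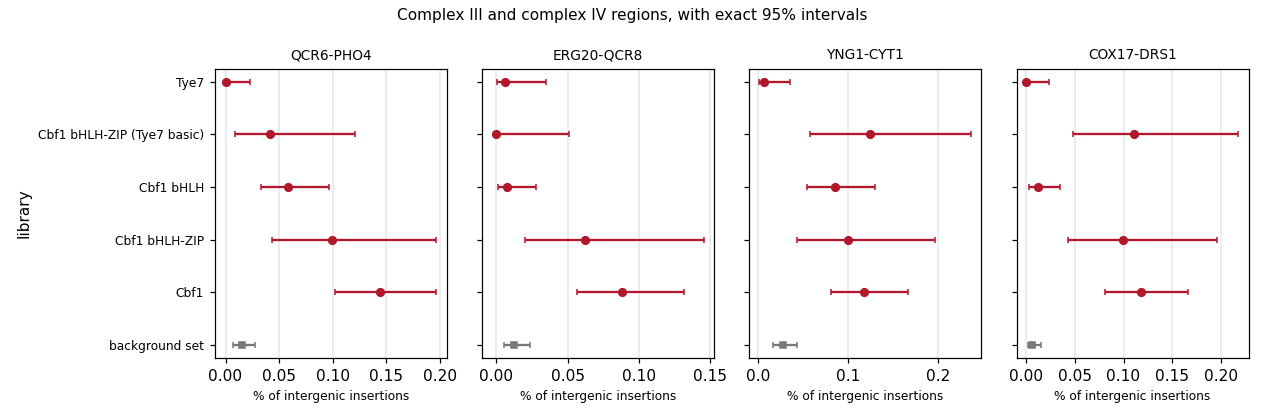
Share of intergenic insertions (x axis, percent, with exact 95% intervals of counting error) in QCR6-PHO4, ERG20-QCR8, YNG1-CYT1 and COX17-DRS1 for Tye7 and 4 forms of Cbf1 (red circles) and for the background set (grey squares, bottom row). In Cbf1 the shares run from 0.0884% to 0.144%, and in Tye7 none is above 0.00625%.

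Cst6 gave a different complex III region. COR1-ECM13, upstream of the core subunit gene COR1 and of ECM13 (chromosome 2, 135519 to 136691), held 108 insertions in Cst6, 0.286% against 0.108% of the background, 2.65-fold higher (1.91 to 3.71; adjusted exact p = 4.31e-08). The same region was lower in Cbf1 with 6 insertions (a factor of 3.00, 1.28 to 8.62; adjusted exact p = 0.0494), a call lost under 4 alternatives. The regions of QCR2, QCR9, RIP1, which encodes the Rieske protein, and CYT1 were lower in Cst6, with 0, 2, 5 and 1 insertions, and these calls were lost with merged positions. RPC82-QCR2 held 0 insertions in all 12 libraries, against 9 and 11 in the background sets. QCR7-APA2 was never called.

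OSH7-QCR10, the region upstream of the complex III gene QCR10, held 36 insertions in Cbf1, 7.99-fold higher than the background (3.98 to 17.4; adjusted exact p = 1.25e-09). It was also called higher in Cbf1 bHLH-ZIP with Tye7 basic region, Cbf1 bHLH-ZIP and Cbf1 bHLH, with 11, 15 and 21 insertions against 11 in the background. It was called lower in Cst6, with 3 against 22 (adjusted exact p = 0.0137). ATP18-DUS1, upstream of the ATP synthase gene ATP18, was not called against the background in any library.

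The 2 cytochrome c genes gave no call. ANB1-CYC1, upstream of the main isoform gene CYC1 and of ANB1, held between 1 and 11 insertions per library. CYC7-UTR4, upstream of the minor isoform gene CYC7 and of UTR4, held at most 7, and its 5 insertions in TEF1p-Tye7 gcr2D were not called (adjusted exact p = 0.0934).

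Complex IV, cytochrome c oxidase, had 2 regions called higher, COX17-DRS1 in 3 forms of Cbf1 and COX9-IDP1 in TEF1p-Tye7 gcr2D. COX17-DRS1, upstream of the copper chaperone gene COX17 and of DRS1 (chromosome 12, 131413 to 131728), held 8 insertions in Cbf1 bHLH-ZIP with Tye7 basic region, 3 in Cbf1 bHLH, 8 in Cbf1 bHLH-ZIP and 32 in Cbf1, and between 0 and 2 in the other 8 libraries, against 4 in each background set. Its share in Cbf1 was 0.118%, 19.5-fold higher than the background (6.93 to 76.0; adjusted exact p = 7.20e-12). It was 18.3-fold higher with the Tye7 basic region (4.91 to 83.2; adjusted exact p = 0.000267), a call lost with at least 5 reads, and 16.5-fold higher in Cbf1 bHLH-ZIP (4.42 to 74.9; adjusted exact p = 0.000448). Tye7 held 0 insertions there against 32 in Cbf1, at least 6.29-fold lower with 3 insertions taken for Tye7 (adjusted exact p = 3.64e-05).

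COX9-IDP1, upstream of the subunit VIIa gene COX9 and of IDP1 (chromosome 4, 334396 to 334835), held 10 insertions in TEF1p-Tye7 gcr2D, 0.132% against 2 insertions in the background, 43.7-fold higher (9.30 to 410; adjusted exact p = 1.53e-06). The fold rests on those 2 insertions, 0.00302% of that background set. The background set of Gcr1, Gcr2 and Cst6 held 9 there, or 0.0167%. Against TEF1p-Tye7, which held 0 insertions, it was not called (adjusted exact p = 0.128). The regions of COX4, COX7, COX8 and COX12 were lower in Cst6, with between 0 and 3 insertions, and SMF2-COX6 was lower in Cbf1 with 0 insertions against 16 in the background (at least 2.18-fold; adjusted exact p = 0.0377), a call lost under 4 alternatives. The Cst6 calls here were lost with merged positions. IME4-COX13 was never called.

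The ATP synthase list held the region with the largest share in any library, ATP7-PUT3 in Cbf1 bHLH-ZIP with Tye7 basic region; in Cbf1 the NDI1 region held more insertions and in Cst6 the HAP4 region did. ATP7-PUT3 lies between ATP7, which encodes subunit d of the stator stalk, and PUT3, the activator of proline use (chromosome 11, 407632 to 408187). It held 0 insertions in TEF1p-Tye7 gcr2D and TEF1p-Tye7, 2 in Tye7, 331 in Cbf1 bHLH-ZIP with Tye7 basic region, 115 in Cbf1 bHLH, 177 in Cbf1 bHLH-ZIP and 461 in Cbf1. Both NPAS2 libraries, Gcr1 and Cst6 held 0 and Gcr2 held 1, while the background sets held 7 for 9 libraries and 12 for the other 3. All 4 forms of Cbf1 stood above the background, and no other library was called higher.

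With the Tye7 basic region the ATP7 region took 4.58% of insertions (4.11 to 5.08), against 0.0106% of the background, 433-fold higher (208 to 1086; adjusted exact p = 5.60e-320), and it was the 4th fullest of 4532 regions. It was 42.4-fold higher in Cbf1 bHLH (19.9 to 108; adjusted exact p = 1.77e-51), 209-fold higher in Cbf1 bHLH-ZIP (99.2 to 527; adjusted exact p = 4.56e-158) and 161-fold higher in Cbf1 (77.4 to 402; adjusted exact p = 1.43e-232). It was called in the lower direction in Cst6, with 0 insertions against 12 in the background, and lost this call under scaling, at least 5 reads and merging.

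Between libraries the ATP7 region moved with the form of Cbf1. The library with the Tye7 basic region had 4.58% against 2.20% in Cbf1 bHLH-ZIP, 2.08-fold higher (1.72 to 2.51; adjusted exact p = 2.81e-13), in a pair where 0.199% of all regions were called higher and 0.419% lower. This pair also differs in strain, BY4742 against BY4741, so strain and basic region cannot be told apart. The log2 ratio of 1.05 lay near the limit for a call, and it was 0.99 with at least 5 reads and 0.39 with merged positions, neither of which was called. Cbf1 bHLH had 0.448% against 2.20% in Cbf1 bHLH-ZIP, lower by a factor of 4.92 (3.87 to 6.28; adjusted exact p = 1.08e-38), in a pair where 1.08% of all regions were called lower. Tye7 had 0.0125% against 1.70% in Cbf1, lower by a factor of 136 (37.4 to 1125; adjusted exact p = 2.97e-87), in a pair where 2.76% of all regions were called lower. Host deletion, tye7D against cbf1D, differs in that pair too. Cbf1 bHLH-ZIP had 2.20% against 1.70% in Cbf1, a ratio of 1.30 (1.09 to 1.55) that was not called (adjusted exact p = 0.635).

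In 3 of the 7 pairs 0 of the 36 regions were called by the exact test in either direction. For Cbf1 bHLH-ZIP over Cbf1, 0.11% of all regions were called higher and 0% lower, and 1 of the 36 was higher and 1 lower at an unadjusted p under 0.05. For TEF1p-Tye7 gcr2D over TEF1p-Tye7 the values were 0.309% and 0.353%, with 3 of the 36 higher and 0 lower at an unadjusted p. For TEF1p-Tye7 over Tye7, a pair that also differs in the deletion of TYE7, they were 0.177% and 0.0221%, with 1 of the 36 higher and 1 lower at an unadjusted p.

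The lists of insertions are built from sorted blocks, called runs, which the labels do not name and which are not replicates. The ATP7 region took between 4.30% and 4.81% in 2 runs of the Tye7 basic region library, between 2.18% and 2.24% in 2 runs of Cbf1 bHLH-ZIP, and between 1.42% and 2.23% in 4 runs of Cbf1. For the NDI1 region the runs gave 0.154% to 0.269% with the Tye7 basic region, 1.19% to 1.82% in Cbf1 bHLH-ZIP and 1.5% to 2.43% in Cbf1. In both regions the runs with the Tye7 basic region did not overlap those of Cbf1 bHLH-ZIP, but each library had only 2 runs. How many of all regions separate in this way was not computed, so this is a description only.

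**Figure D4:**
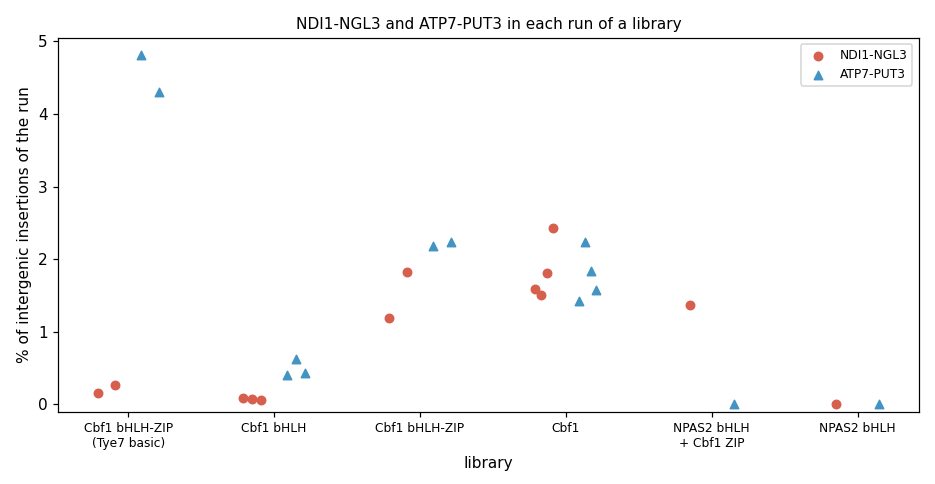
Share of a run's intergenic insertions (y axis, percent) in NDI1-NGL3 (circles) and ATP7-PUT3 (triangles), 1 point per run, for 4 forms of Cbf1 and both NPAS2 libraries. With the Tye7 basic region the ATP7-PUT3 points lie at 4.30% and 4.81% and the NDI1-NGL3 points at or under 0.269%; in Cbf1 both regions lie between 1.42% and 2.43%.

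The share of ATP7 among insertions in either of these regions is given as a description, with no test, since both regions were chosen with their values known. It was 95.7% in Cbf1 bHLH-ZIP with Tye7 basic region (331 of 346), 87.1% in Cbf1 bHLH, 60.4% in Cbf1 bHLH-ZIP (177 of 293) and 49.5% in Cbf1. With merged positions these libraries gave 71.1%, 71.7%, 42.6% and 38.9% in that order. In NPAS2 bHLH with the Cbf1 ZIP it was 0 of 39, and in the background sets it was 13.7% and 23.1%.

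The other ATP synthase regions held few insertions. ATP4-GPI2, upstream of the stator gene ATP4 and of GPI2 (chromosome 16, 408741 to 410440), held 26 insertions in Gcr2, 3.06-fold higher than the background (1.62 to 5.93; adjusted exact p = 0.0145), a call lost with at least 5 reads, and 0 in Cst6, at least 4.21-fold lower. ATP14-YHC1, upstream of the stator gene ATP14 (chromosome 12, 722375 to 724723), was lower than the background in 4 libraries, with 1 insertion in Cbf1 bHLH-ZIP, 10 in Cbf1, 16 in Gcr2 and 19 in Cst6. It held 39 insertions in Cbf1 bHLH and 1 in Cbf1 bHLH-ZIP, 12.2-fold higher (2.06 to 494; adjusted exact p = 0.0388), a call lost under 3 alternatives; 0.353% of all regions were called higher in that pair. ATP5-BFR2 was lower in Cbf1, with 1 insertion against 24 in the background (a factor of 9.83, 1.60 to 404), and in Cst6, with 3 against 21 (a factor of 4.92, 1.47 to 25.7). SAM4-ATP15 was lower in Cbf1, with 5 against 48, and in Cst6, with 6 against 41. ARH1-ATP17 held 0 in Cst6 against 17, at least 3.98-fold lower. All lower calls of the ATP synthase regions against the background were lost with merged positions. The regions of ATP2, ATP3, ATP16 and ATP20 were never called, and that of ATP2, which encodes the catalytic beta subunit, is 132 bp long and held 0 insertions in every library.

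The region of HAP4, which is shared with KTI12, was called higher in Cst6. KTI12-HAP4 is a divergent region of 2348 bp (chromosome 11, 229524 to 231871). It held 14 insertions in TEF1p-Tye7 gcr2D, 7 in TEF1p-Tye7, 13 in Tye7, 7 in Cbf1 bHLH-ZIP with Tye7 basic region, 52 in Cbf1 bHLH, 5 in Cbf1 bHLH-ZIP and 67 in Cbf1. It held 0 in NPAS2 bHLH with the Cbf1 ZIP, 2 in NPAS2 bHLH, 15 in Gcr1, 29 in Gcr2 and 534 in Cst6, against 124 and 97 in the background sets. Only Cst6 was called, with 1.41% (1.30 to 1.54) against 0.18% of the background, 7.84-fold higher (6.30 to 9.84; adjusted exact p = 1.94e-110), and its 3 runs lay between 1.37% and 1.54%. KTI12-HAP4 was the 12th fullest region of Cst6 and held 66.9% of that library's insertions in the 36 regions. Tye7 had 0.0813% against 0.247% in Cbf1, lower by a factor of 3.04 (1.66 to 6.0; adjusted exact p = 0.00221), and this call was lost with at least 5 reads or when every run had to lie on 1 side.

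Insertions gathered at particular distances from the member gene. In the NDI1 region the fullest 100 bp window began 437 bp from the NDI1 edge with the Tye7 basic region (53.3% of 15 insertions), 472 bp in Cbf1 bHLH (52.9% of 17), 442 bp in Cbf1 bHLH-ZIP (69.0% of 116), 441 bp in Cbf1 (52.2% of 471) and 441 bp in NPAS2 bHLH with the Cbf1 ZIP (76.9% of 39). In the ATP7 region it began 297 bp from the ATP7 edge with the Tye7 basic region (44.7%), 232 bp in Cbf1 bHLH (78.3%), 299 bp in Cbf1 bHLH-ZIP (63.8%) and 306 bp in Cbf1 (58.8%). In the HAP4 region the 534 Cst6 insertions fell at 342 positions, and the fullest window, from 1014 bp from the HAP4 edge, held 23.4% of them. They formed 2 clusters: the fullest 50 bp bins began at 1050 bp (102 insertions) and 2000 bp (75), while the bin that holds the median of 1459.5 bp had 13. The 461 Cbf1 insertions in the ATP7 region fell at 186 positions, and merging positions within 5 bp left 70 of them, a count that dense regions limit by construction.

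**Figure D5:**
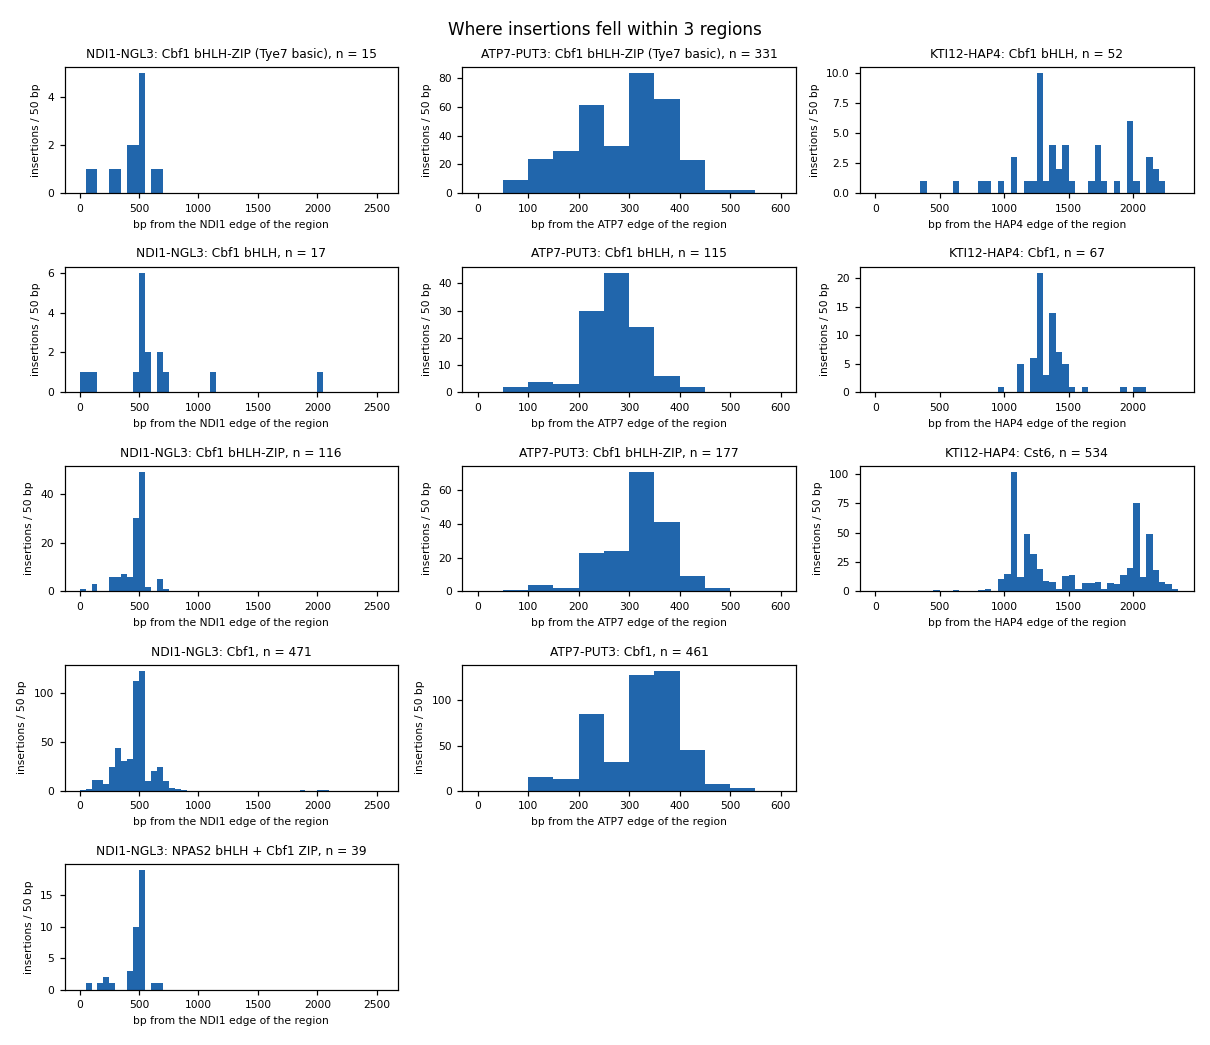
Insertions per 50 bp (y axis, own scale in each panel) by distance in bp from the edge of the region next to NDI1, ATP7 or HAP4 (x axis), for libraries named above each panel with their number of insertions. The fullest 100 bp window of NDI1-NGL3 starts at 437 to 442 bp in 4 libraries and at 472 bp in Cbf1 bHLH, and that of ATP7-PUT3 starts at 297 to 306 bp in 3 libraries and at 232 bp in Cbf1 bHLH.

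Taken as 1 set, the 36 regions rested on NDI1 and ATP7 in the Cbf1 libraries. They held 5.50% of insertions with the Tye7 basic region, 1.76% in Cbf1 bHLH, 4.33% in Cbf1 bHLH-ZIP and 4.52% in Cbf1, against 1.38% of the background. Without NDI1 and ATP7 the shares were 0.719%, 1.25%, 0.685% and 1.08% in that order of libraries, against 1.31% of the background. NPAS2 bHLH with the Cbf1 ZIP had 1.78% with both regions and 0.420% without them. Cst6 had 2.11% with both and 2.09% without them, against 1.46% and 1.36% of its background, and its total rests on KTI12-HAP4. Tye7 had 0.863%, TEF1p-Tye7 0.578%, TEF1p-Tye7 gcr2D 1.20%, Gcr1 0.810%, Gcr2 0.95% and NPAS2 bHLH 1.33%.

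Of 73 further genes of the pathway (Hap complex and heme regulators, assembly factors, other subunits and coenzyme Q synthesis), 54 had an upstream region. Cst6 called 3 of these higher and 10 lower, Cbf1 1 higher and 7 lower, Gcr2 2 higher and 2 lower, Cbf1 bHLH-ZIP 0 higher and 2 lower, and no other library more than 1. These counts stand beside the shares of all regions given above: 18.5% of the 54 were lower in Cst6, where 18.4% of all regions were, and 13.0% in Cbf1, where 11.2% were. FCY1-ROX1, upstream of the repressor gene of hypoxic genes ROX1, was 8.44-fold higher in Cst6 (320 insertions against 54 in the background, adjusted exact p = 3.25e-68). COQ2-MVD1, upstream of the coenzyme Q gene COQ2, was 5.70-fold higher in Cst6 (28 against 7; adjusted exact p = 0.000119). COX20-HEM1, upstream of the complex IV assembly gene COX20 and next to the heme synthesis gene HEM1, was 8.18-fold higher in TEF1p-Tye7 gcr2D (15 against 16; adjusted exact p = 1.76e-05). CYC3-CDC19, shared by the cytochrome c heme lyase gene CYC3 and the pyruvate kinase gene CDC19, was 3.72-fold higher in Tye7, 4.32-fold in TEF1p-Tye7, 3.46-fold in Gcr1 and 6.16-fold in Gcr2. It was lower than the background in Cbf1 bHLH-ZIP (2 insertions against 127), Cbf1 (12 against 127) and Cst6 (21 against 126), and lower in TEF1p-Tye7 gcr2D, with 10 insertions, than in TEF1p-Tye7, with 63 (adjusted exact p = 4.95e-08).

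The regions most like ATP7-PUT3 across the 12 libraries, by Pearson's r of log2 library over background among 355 regions with at least 100 insertions, were PSR1-COX17 (0.983), PEP3-STM1 (0.980) and XDJ1-SUL2 (0.974). Those most like NDI1-NGL3 were PTK2-CBF1 (0.945), SYG1-MET30 (0.922) and GNP1-SMT3 (0.913). For KTI12-HAP4, added after its values were seen, they were SCM4-YGR054W (0.928), COT1-FAA1 (0.869) and RHO5-RPS3 (0.867). These values describe 12 points that share background sets and libraries.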

How the data were processed

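Ty5 insertions were mapped in genomic DNA of 12 strains, 1 library each; DNA was cut in 3 digests and amplified by inverse PCR, per the labels' protocols. Novoalign is named in the submitters' processing notes. Coordinates follow a build not given in the sources used here. Deposited files are lists of insertions with counts of reads and tables of 4532 regions with counts of insertions, per the file headers. The authors' deposited Poisson p-value per region tests only for more insertions than the background. Counts in the tables were recounted from the lists and differed in 0 regions. Assembly R64 was used only for names and for genes lying between neighbours (4656 of 4657 identifiers matched).

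Shares, log2 ratios (1 insertion added), two-sided Fisher's exact tests with Benjamini-Hochberg adjustment and exact intervals were computed from those counts with Python 3.11.15, numpy 2.4.6, scipy 1.17.1, pandas 2.3.3 and matplotlib 3.10.9, and tested on simulated data. Reads are PCR products without molecular identifiers, so intervals cover counting error only. For a count of 0, bounds use 3 insertions. Every member region called in any comparison was named, with NDI1, ATP7, COX17 and HAP4 in any case. The members, the pathway list and the tests were chosen with earlier results of these data known. Alternatives were a minimum of 10 insertions, widened regions, scaling outside the 10 fullest regions, the authors' p-value, agreement of runs with at least 500 intergenic insertions, at least 5 reads, merging within 5 bp, and other member sets. Merging and read limits against the background, the regions of QCR10 and ATP18, and both alternatives of the ATP7 share were chosen after seeing the data. Sequences and motif matches were not analysed here.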

Additional observations from a re-analysis of the deposited data

Results flagged for a closer look

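Signal above the background set was found in 4 regions beside member genes that lay outside the 36 compared, by the same exact test and ratio, out of 39 such flanking regions examined on the other side of a gene and those of QCR10 and ATP18. Among all regions, 1.39% were called higher in Cbf1 bHLH-ZIP with Tye7 basic region, 1.39% in Cbf1 bHLH, 1.83% in Cbf1 bHLH-ZIP, 3.42% in Cbf1 and 3.2% in Cst6. Shares are percentages of a library's intergenic insertions.

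PSR1-COX17, on the other side of COX17 and upstream of PSR1, took 1.13% in Cbf1 bHLH-ZIP with Tye7 basic region, 0.455% in Cbf1 bHLH, 1.26% in Cbf1 bHLH-ZIP and 1.36% in Cbf1, against 0.0121% of the background set. HCS1-ATP7, on the other side of ATP7 and upstream of HCS1, took 0.207% with the Tye7 basic region, 0.112% in Cbf1 bHLH-ZIP and 0.158% in Cbf1, against 1 insertion of the background set. OSH7-QCR10, upstream of QCR10, took 0.152% with the Tye7 basic region, 0.0818% in Cbf1 bHLH, 0.187% in Cbf1 bHLH-ZIP and 0.133% in Cbf1, against 0.0166% of the background set. RPS16A-NDE1, on the other side of NDE1, took 0.0953% in Cst6, against 0.0353% of its background set. RPS16A-NDE1 was called lower in Cbf1, with 0 insertions against 37 (adjusted exact p = 0.000111). The other lower calls among these regions were RPS26A-COX4 and TUB1-ATP18 in Cbf1, and ATP16-MCD1, RPL29-QCR6, ATP2-IBA57, CYT1-ALG8 and OSH7-QCR10 in Cst6.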

How the results depend on the processing

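Of 63 calls of a single region, none changed direction. Over 400 alternative values 322 kept the call and 78 lost it. The minimum of 10 insertions, which only tests fewer regions, kept 63 of these, and agreement of runs kept 61. Against the background, agreement of runs cannot fail in a library with 1 run, so the total is not a measure of stability. Counts are of member regions against the background unless a pair is named. Without NDI1 and ATP7 the higher counts were 1 with the Tye7 basic region, 1 in Cbf1 bHLH, 2 in Cbf1 bHLH-ZIP and 1 in NPAS2 bHLH with the Cbf1 ZIP; in the pairs, 0 were higher and 0 lower with the Tye7 basic region, 0 lower in Cbf1 bHLH than in Cbf1 bHLH-ZIP and 0 higher in NPAS2 bHLH with the Cbf1 ZIP than in NPAS2 bHLH, by construction since those regions made the calls. Pooled shares then were 0.719% with the Tye7 basic region, 1.25% in Cbf1 bHLH, 0.685% in Cbf1 bHLH-ZIP, 1.08% in Cbf1 and 0.420% in NPAS2 bHLH with the Cbf1 ZIP.

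Regions upstream of 1 gene were picked by the 2 genes that name them, without further genes between these. With such regions only, higher counts were 0 in TEF1p-Tye7 gcr2D, 0 with the Tye7 basic region, 0 in Cbf1 bHLH, 1 in Cbf1 bHLH-ZIP, 2 in Cbf1, 1 in NPAS2 bHLH with the Cbf1 ZIP, 0 in Gcr2 and 0 in Cst6. Lower counts were 4 in Cbf1 and 9 in Cst6. In the pairs, 0 regions were higher and 0 lower with the Tye7 basic region, 0 lower in Cbf1 bHLH, 0 higher in NPAS2 bHLH with the Cbf1 ZIP and 2 lower in Tye7 than in Cbf1. Pooled shares were 0.580% in TEF1p-Tye7 gcr2D, 0.223% in TEF1p-Tye7, 0.431% in Tye7, 0.263% with the Tye7 basic region, 0.638% in Cbf1 bHLH, 0.262% in Cbf1 bHLH-ZIP, 0.464% in Cbf1, 0.280% in NPAS2 bHLH with the Cbf1 ZIP, 0.663% in NPAS2 bHLH, 0.366% in Gcr1, 0.351% in Gcr2 and 0.310% in Cst6. With all insertions as denominator they were 0.741% in TEF1p-Tye7 gcr2D, 0.384% in TEF1p-Tye7, 0.575% in Tye7, 4.27% with the Tye7 basic region, 1.29% in Cbf1 bHLH, 3.36% in Cbf1 bHLH-ZIP, 3.53% in Cbf1, 1.10% in NPAS2 bHLH with the Cbf1 ZIP, 0.575% in Gcr1, 0.726% in Gcr2 and 1.47% in Cst6. Widened regions gave 1.94% in Cst6 and 2 regions higher in Cbf1 bHLH than in Cbf1 bHLH-ZIP.

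Scaling outside the 10 fullest regions gave 2 higher in TEF1p-Tye7 gcr2D and 1 in Gcr1, and 0 lower in Cbf1 bHLH-ZIP, 3 in Cbf1, 0 in Gcr2 and 9 in Cst6, with 0 higher in Cbf1 bHLH than in Cbf1 bHLH-ZIP. Over all regions it moved the share of higher among called regions to 45.9% (23.4% before) in Cbf1, 98.1% (70.9%) in Cbf1 bHLH-ZIP, 94.9% (54.2%) in Gcr1, 85.9% (46.6%) in Gcr2, 28.0% (14.8%) in Cst6, 1.37% (24.6%) for Cbf1 bHLH over Cbf1 bHLH-ZIP and 23.8% (46.7%) for TEF1p-Tye7 gcr2D over TEF1p-Tye7. Regions with at least 10 insertions gave 2 lower in Gcr1 and 5 in Gcr2, 3 higher in Cbf1 bHLH than in Cbf1 bHLH-ZIP, 1 lower in Cbf1 bHLH-ZIP than in Cbf1, 2 higher in TEF1p-Tye7 gcr2D than in TEF1p-Tye7 and 3 higher in Tye7 than in Cbf1; fewer regions are then tested. The authors' p-value, which tests only for more insertions, gave 4 higher in Cbf1 bHLH, 1 in Gcr1 and 2 in TEF1p-Tye7 gcr2D.

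At least 5 reads in the library gave 1 higher with the Tye7 basic region, 1 in NPAS2 bHLH with the Cbf1 ZIP and 1 in Gcr2, and 0 lower in Cbf1 bHLH-ZIP, 4 in Cbf1 and 8 in Cst6. In the pairs it gave 0 higher with the Tye7 basic region, 0 in Cbf1 bHLH than in Cbf1 bHLH-ZIP and 0 in NPAS2 bHLH with the Cbf1 ZIP. Merging positions gave 1 higher in Cbf1 bHLH, 1 in NPAS2 bHLH with the Cbf1 ZIP and 1 in Gcr1, and 0 lower in Cbf1 bHLH-ZIP, 1 in Cbf1, 0 in Gcr2 and 0 in Cst6. In the pairs it gave 0 higher in Cbf1 bHLH than in Cbf1 bHLH-ZIP, 0 higher and 0 lower with the Tye7 basic region and 0 higher in Tye7 than in Cbf1, and the ATP7 share differed by 3.70 percentage points between Cbf1 bHLH-ZIP and Cbf1. Requiring every run on 1 side left 0 higher in Tye7 than in Cbf1. For these shifts the cause was not tested, except where the construction is named.

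No paired analysis was possible because each group has 1 library. A count of 0 allows a share of up to 0.124% in NPAS2 bHLH and 0.00794% in Cst6, so lower shares are least detectable in the small libraries. Intervals cover counting error only, and with 1 library a group no spread between libraries is known.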
